A study of Mus musculus with 2 samples.

Results

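The genes described here are 9 members of the mouse MS4A family that are known from myeloid cells and T cells: Ms4a2, Ms4a3, Ms4a4a, Ms4a4b, Ms4a4c, Ms4a6b, Ms4a6c, Ms4a6d and Ms4a7. They were found by their symbols, matched through unversioned Ensembl identifiers, among the 43346 genes listed for each library, and all 9 were present. The RNA came from whole spleen of C57BL/6J mice at 8 weeks of age, an inbred laboratory strain, and 2 biological replicates, called library 1 and library 2, form the only group. No treatment, mutation or second tissue was labelled, so the values describe the adult spleen and the distance between its 2 libraries. The labels give mixed-sex littermates and 1 shared donor record, without assigning animals to libraries. SDs therefore hold no more than the difference between these samples, which could be technical, and p-values measure only departure from counting error. Each mean ± SD is over the 2 libraries (n = 2).

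MS4A proteins cross the membrane several times. Several of them sit in the plasma membrane of blood cells as partners of other receptors. The best known are CD20 of B cells, encoded by Ms4a1, and the beta chain of the high-affinity IgE receptor of mast cells and basophils, encoded by Ms4a2. Other members mark macrophages, monocytes, granulocyte precursors or T cells, all of which the spleen holds. The genes lie side by side on 1 chromosome and several are close relatives, so reads and start regions can resemble each other.

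The 9 members lay within 319.8 kb of chromosome 19, at chr19:11321039-11640851 of GRCm38, 5 on the plus and 4 on the minus strand. Start-site windows, 250 bases before to 50 after the RefSeq start on GRCm38.p6, were found for 8 of the 9 members, all but Ms4a6d. Among the 28 pairs of these windows, 2 pairs shared long identical stretches, and these 4 windows are shown because they carry that likeness. Capitals mark runs of at least 12 bases that stand in the same form in the partner's window, written 5′ to 3′ on the gene's strand.
Ms4a4b (chr19:11443308-11443607, plus strand): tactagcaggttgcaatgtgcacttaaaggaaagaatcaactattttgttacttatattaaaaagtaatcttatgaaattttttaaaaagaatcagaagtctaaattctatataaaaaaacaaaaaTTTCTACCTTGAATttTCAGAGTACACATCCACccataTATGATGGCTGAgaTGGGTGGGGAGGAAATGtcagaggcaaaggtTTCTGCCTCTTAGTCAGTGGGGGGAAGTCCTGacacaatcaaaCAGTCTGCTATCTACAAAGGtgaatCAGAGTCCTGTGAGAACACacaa
Ms4a4c (chr19:11407411-11407710, plus strand): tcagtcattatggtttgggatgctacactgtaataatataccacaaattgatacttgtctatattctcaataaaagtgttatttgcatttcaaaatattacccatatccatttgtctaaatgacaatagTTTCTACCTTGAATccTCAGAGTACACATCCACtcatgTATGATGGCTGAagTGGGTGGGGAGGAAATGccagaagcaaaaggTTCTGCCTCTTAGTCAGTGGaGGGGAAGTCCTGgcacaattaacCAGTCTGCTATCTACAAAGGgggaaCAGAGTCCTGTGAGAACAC
Ms4a6b (chr19:11518309-11518608, plus strand): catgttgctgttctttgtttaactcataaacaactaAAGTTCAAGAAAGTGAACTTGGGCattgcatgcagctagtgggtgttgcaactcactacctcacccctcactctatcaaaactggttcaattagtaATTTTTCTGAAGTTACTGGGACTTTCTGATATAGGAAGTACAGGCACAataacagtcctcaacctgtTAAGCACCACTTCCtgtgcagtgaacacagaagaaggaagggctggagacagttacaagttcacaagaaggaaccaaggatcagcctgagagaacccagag
Ms4a6c (chr19:11469118-11469417, plus strand): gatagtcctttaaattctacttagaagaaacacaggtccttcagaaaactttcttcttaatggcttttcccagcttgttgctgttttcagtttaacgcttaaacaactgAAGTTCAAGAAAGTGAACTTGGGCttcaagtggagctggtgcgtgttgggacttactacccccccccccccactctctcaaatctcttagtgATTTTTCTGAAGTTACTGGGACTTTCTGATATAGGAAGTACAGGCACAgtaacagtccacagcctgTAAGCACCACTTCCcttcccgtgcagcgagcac

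The Ms4a4b and Ms4a4c windows shared 131 of 300 bases in such runs, the longest of 20 bases. The Ms4a6b and Ms4a6c windows shared 86 bases, with a longest run of 48 bases. Of the other 26 pairs, 1 shared a run, which was 12 bases long and joined Ms4a3 with Ms4a4c. The RefSeq starts of Ms4a4c and Ms4a6b lie inside the span that GENCODE gives these genes, so their windows show 1 of several annotated starts. On both strands, the ETS motif AGGAAGT was found in 2 of the 8 windows, those of Ms4a6b and Ms4a6c, and in 9.35% of all 32851 RefSeq windows of this length. The IRF motif GAAANNGAA was found in 3 of the 8, those of Ms4a6b, Ms4a6c and Ms4a7, and in 8.56% of all windows. In Ms4a6b and Ms4a6c, 1 match to each motif lay within the capitals, and the matches did not overlap each other. These are matches of letters and say nothing of whether a factor was bound.

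The transcripts also held identical stretches, which bear on how reads can be told apart. In the GENCODE M21 transcripts, 4 of the 36 pairs of members shared at least 1 stretch of 76 bases, the read length. For Ms4a2 with Ms4a4b (112 bases) and Ms4a6b with Ms4a6c (96 bases), the pair's longest run lay outside the coding part. The longest run, 127 bases, lay wholly in the coding part of both Ms4a4b and Ms4a4c, and a run of 81 coding bases joined Ms4a6b with Ms4a6d. Both pairs are shown spliced, with the run in capitals and 15 bases of coding sequence on each side in lower case, and the positions on GRCm38 span the introns between.
Ms4a4b (chr19:11457846-11461280, plus strand): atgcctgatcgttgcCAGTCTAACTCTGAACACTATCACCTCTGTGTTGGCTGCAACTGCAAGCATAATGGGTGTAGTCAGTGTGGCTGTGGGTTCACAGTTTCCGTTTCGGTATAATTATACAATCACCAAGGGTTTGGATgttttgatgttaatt
Ms4a4c (chr19:11417693-11421281, plus strand): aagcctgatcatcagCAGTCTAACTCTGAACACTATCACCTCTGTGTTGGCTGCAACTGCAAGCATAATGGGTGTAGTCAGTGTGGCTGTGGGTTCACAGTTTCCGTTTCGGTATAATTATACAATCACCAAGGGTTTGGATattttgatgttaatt
Ms4a6b (chr19:11520423-11521718, plus strand): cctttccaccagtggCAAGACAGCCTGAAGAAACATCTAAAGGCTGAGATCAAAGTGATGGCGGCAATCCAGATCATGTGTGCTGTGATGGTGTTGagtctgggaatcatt
Ms4a6d (chr19:11601917-11603208, minus strand): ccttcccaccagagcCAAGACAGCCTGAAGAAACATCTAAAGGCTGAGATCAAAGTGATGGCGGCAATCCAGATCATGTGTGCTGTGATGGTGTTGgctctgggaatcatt

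Such stretches were a small part of each gene. Of all 76-base windows of its annotated transcripts, Ms4a4c shared 3.66% with another of 12 genes compared, the most of any member, and Ms4a3, Ms4a4a and Ms4a7 shared none. The deposited spread of the estimated gene count was 0 for all 9 members in both libraries. At the precision given, the authors' estimation thus divided none of their reads between genes of its annotation. That spread was above 0 for 3262 of 20157 genes with counts in library 1 and 3403 of 20381 in library 2. It cannot speak to stretches absent from the authors' annotation. A run of 112 bases outside the coding part joined Ms4a2-204 with Ms4a4b-201 in GENCODE M21, and the deposited Ms4a4b-201 is shorter.

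Gene counts came to 49686331 in library 1 and 51393340 in library 2. Levels are TPM, a transcript abundance scaled to a fixed total, which is per length and can be compared between genes, and detected here means at least 1 TPM. The median TPM ratio of library 1 over library 2 was 1.11 across detected genes, whereas counts scaled by TMM (a trimmed mean of log ratios) had a median log2 ratio of -0.005 over tested genes, so differences between libraries are given from scaled counts. The RNA also held exocrine pancreas transcripts, whose 6 marker genes summed to 76008.4 TPM in library 1 against 59244.3 TPM in library 2. That sum was led by the chymotrypsinogen gene Ctrb1 (log2 ratio 0.67), while the other 5 were lower in library 1 by scaled counts, and the list's median log2 ratio was -0.12. In bulk tissue, fewer cells of a type and less RNA per cell cannot be told apart.

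The 9 members spanned a wide range of levels, and 2 of them held most of the family's RNA described here. In all, 7 of the 9 reached 1 TPM in both libraries. Together the 9 summed to 86.9 TPM in library 1 against 112.1 TPM in library 2. Ms4a4b and Ms4a6b made up 75.7% of that sum in library 1 and 71.4% in library 2. The highest member exceeded the lowest by 405.2-fold within library 1 and by 406.0-fold within library 2. The lowest, Ms4a2, rested on 5 and 10 counts, and with the deposited posterior mean TPM these folds were 130.8 and 157.1.

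**Figure D1:**
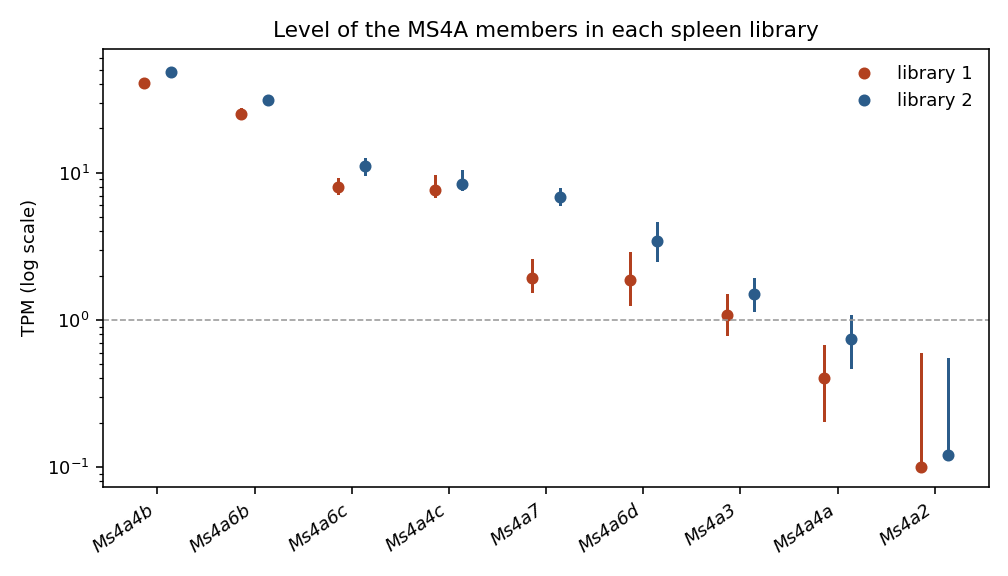
TPM of each member on a log axis in library 1 (left, red) and library 2 (right, blue), ordered by mean level, with lines for the deposited lower and upper bounds, which surround the posterior mean TPM, and a dashed line at 1 TPM. All 9 members were lower in library 1 by TPM, though not Ms4a2 by posterior mean TPM. Levels ran from Ms4a4b at 40.52 and 48.72 TPM down to Ms4a2 at 0.1 and 0.12 TPM. The gap was widest for Ms4a7 at 1.93 and 6.82 TPM.

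The order of the levels was Ms4a4b, Ms4a6b, Ms4a6c, Ms4a4c, Ms4a7, Ms4a6d, Ms4a3, Ms4a4a and Ms4a2. Neighbours in this order were separated beyond the range of the 2 libraries in all but 2 cases. The ranges of Ms4a6c and Ms4a4c overlapped, and so did those of Ms4a7 and Ms4a6d. These ranges use the TPM values alone. The deposited bounds of Ms4a6d, 1.28 to 2.87 TPM, overlapped those of Ms4a3, 0.797 to 1.47 TPM, in library 1 but not in library 2. Those of Ms4a4a and Ms4a2 overlapped in both, at 0.21 to 0.669 and 0.105 to 0.582 TPM in library 1. Bounds from different libraries also overlapped for Ms4a4c with Ms4a7 and for Ms4a3 with Ms4a4a, so the lower part of the order is uncertain. In library 1, Ms4a7 and Ms4a6d were nearly level, at a TPM ratio of 1.03, whereas in library 2 Ms4a7 was 1.98-fold above Ms4a6d.

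All 9 members had lower TPM in library 1, although the posterior mean TPM of Ms4a2 was 0.31 in both libraries. By counts, 6 of the 9 differed beyond counting error, every one lower in library 1. An exact two-sided binomial test of counts, adjusted over all genes, set that call at 0.05. The same test called 50.7% of the 17547 genes tested, and 24.1% were called and lower in library 1. Among the members, 2 were called and more than 2-fold lower in library 1, Ms4a7 and Ms4a6d, against 3.52% of tested genes. The members' median log2 ratio was -0.61, beside -0.005 over all tested genes. All 9 passed the minimum of 10 counts in total. The test compares these 2 libraries, with 1 library on each side and no replicate check.

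**Figure D2:**
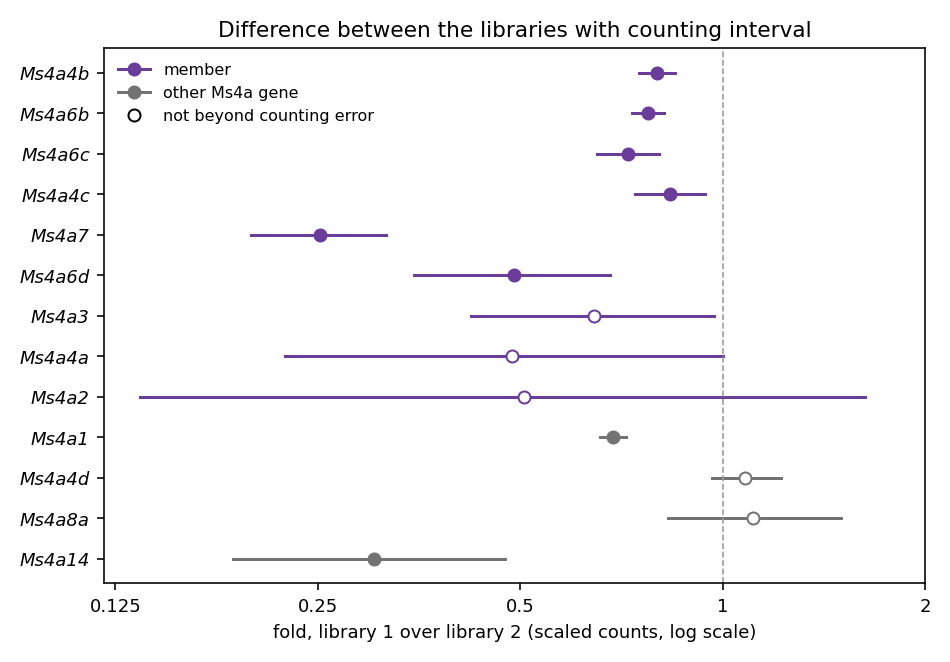
Fold of scaled counts, library 1 over library 2, on a log axis with 95% counting intervals, for the 9 members (purple) and the 4 other Ms4a genes with at least 10 counts (grey); filled points differed beyond counting error. Ms4a7 was farthest to the left at 0.252, and Ms4a4d at 1.08 and Ms4a8a at 1.11 were the genes to the right of 1.

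Of the members known from T cells, Ms4a4b led. Ms4a4b (ENSMUSG00000056290, chr19:11443553-11467055, plus strand) encodes a T cell protein that associates with the costimulatory receptor GITR. Its level was 40.52 TPM in library 1 against 48.72 TPM in library 2, a mean of 44.6 ± 5.8 TPM, which placed it above 94.6% of the genes listed. It rested on 1835 counts in library 1 and 2326 in library 2. The scaled fold of library 1 over library 2 was 0.799 (95% counting interval 0.751 to 0.85), a log2 ratio of -0.32 (adjusted p = 4.21e-12, exact binomial test), and 21.2% of tested genes had a ratio as low or lower. Ms4a4b stood at about the level of the T cell receptor gene Cd3e, at 1.1 times its TPM in library 1 and 1.27 times in library 2. The TPM of Ms4a4b rests on the deposited length of its leading transcript, 1244 bases beside 4750 in GENCODE M21.

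Ms4a6b (ENSMUSG00000024677, chr19:11516512-11531256, plus strand) is a relative of Ms4a6c and Ms4a6d that has also been described in mouse T cells. It stood at 25.23 TPM in library 1 against 31.32 TPM in library 2, a mean of 28.3 ± 4.31 TPM. With 2320 counts in library 1 and 3034 in library 2, its fold was 0.775 (interval 0.734 to 0.818) and its log2 ratio -0.37 (adjusted p = 1.57e-19, exact binomial test). Both of its values lay below both values of Ms4a4b. The annotated start of Ms4a6b overlaps Gm19261, an annotated antisense gene at 0.32 TPM in library 1 against 0.39 TPM in library 2. The libraries kept strand per the labels, but no source used here gives the strand setting of the counting, so reads in that overlap are uncertain.

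The T cell markers lay on both sides of 0. Of 12 T cell genes, all detected, 6 were lower and 2 higher in library 1 beyond counting error, with a median log2 ratio of -0.06. The list summed to 592.1 TPM in library 1 against 565.7 TPM in library 2, and these sums carry the TPM shift given above. The lower genes ran from Cd3d, a chain of the receptor complex, at a log2 ratio of -0.41 to Thy1 at -0.05. Cd8a, the co-receptor chain of killer T cells, was among them at -0.32. The higher genes were Cd28 at 0.17 and Cd5 at 0.09. Cd4, the co-receptor of helper T cells, had a log2 ratio of -0.06 and did not pass (adjusted p = 0.1, exact binomial test). All 6 NK cell genes were detected, with 3 lower and 1 higher and a median log2 ratio of -0.19. The part of T and NK cell content in the values of Ms4a4b and Ms4a6b was not tested.

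Among members known from monocytes, Ms4a6c and Ms4a4c stood close together. Ms4a6c (ENSMUSG00000079419, chr19:11469366-11482192, plus strand), a gene of mouse monocytes and macrophages, was at 8.05 TPM in library 1 against 11.1 TPM in library 2, a mean of 9.57 ± 2.16 TPM. Ms4a4c (ENSMUSG00000024675, chr19:11404770-11427246, plus strand), known from mouse monocytes, was at 7.67 TPM in library 1 against 8.38 TPM in library 2, a mean of 8.03 ± 0.502 TPM. The SD was 6.26% of the mean for Ms4a4c, the smallest of the 9, and 22.5% for Ms4a6c.

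Both genes were lower in library 1 beyond counting error. Ms4a6c had 594 counts in library 1 and 832 in library 2, a fold of 0.723 (interval 0.65 to 0.805) and a log2 ratio of -0.47 (adjusted p = 7.96e-09, exact binomial test). Ms4a4c had 504 counts in library 1 and 611 in library 2, a fold of 0.836 (interval 0.741 to 0.942) and a log2 ratio of -0.26 (adjusted p = 0.00745, exact binomial test). The ratio of Ms4a4c was the nearest to 0 of all 9 members. Ms4a6c overlaps BE692007, a non-coding gene on the opposite strand at 7.11 TPM in library 1 against 7.42 TPM in library 2, so reads in that overlap are uncertain. Gm5692, a pseudogene that overlaps the start of Ms4a4c, was at 0 TPM in library 1 against 0.02 TPM in library 2.

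Monocyte markers were balanced between the libraries. Of 9 monocyte genes, 3 were lower and 3 higher in library 1 beyond counting error, with a median log2 ratio of -0.03, and the list summed to 793.2 TPM in library 1 against 785.1 TPM in library 2. The lower genes were Ly6c2, the surface antigen of classical monocytes, at a log2 ratio of -0.54, Treml4 at -0.14 and Csf1r at -0.11. The higher genes were Fn1 at 0.33, Nr4a1 at 0.30 and Cx3cr1 at 0.12. Csf1r, the growth factor receptor of monocytes and macrophages, was at 125.24 TPM in library 1 against 124.32 TPM in library 2. Set beside it, Ms4a6c had 6.43% of the TPM of Csf1r in library 1 and 8.93% in library 2, and Ms4a4c had 6.12% and 6.74% in the same order. All but 1 of the 9, the coagulation factor gene F13a1, were detected in both libraries.

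Ms4a7 showed the widest gap between the libraries. Ms4a7 (ENSMUSG00000024672, chr19:11321039-11336146, minus strand) is a macrophage gene that in mouse brain marks the macrophages of its borders. It was at 1.93 TPM in library 1 against 6.82 TPM in library 2, a mean of 4.38 ± 3.46 TPM, on 96 counts in library 1 and 386 in library 2. The level in library 1 was well below that in library 2, and the deposited bounds, 1.57 to 2.56 TPM in library 1 and 6.11 to 7.73 TPM in library 2, did not overlap. Its fold was 0.252 (interval 0.199 to 0.316) and its log2 ratio -1.97 (adjusted p = 2.73e-40, exact binomial test), and 1.03% of tested genes had a ratio as low or lower.

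Ms4a6d and Ms4a4a, the other members known from macrophages, were low. Ms4a6d (ENSMUSG00000024679, chr19:11586604-11604849, minus strand) was at 1.88 TPM in library 1 against 3.44 TPM in library 2, a mean of 2.66 ± 1.1 TPM, on 55 counts in library 1 and 114 in library 2. Its fold was 0.489 (interval 0.348 to 0.68) and its log2 ratio -1.01 (adjusted p = 3.58e-05, exact binomial test). Ms4a4a (ENSMUSG00000101389, chr19:11375523-11392790, plus strand), whose human counterpart is found on alternatively activated macrophages, was at 0.4 TPM in library 1 against 0.74 TPM in library 2, a mean of 0.57 ± 0.24 TPM. With 12 counts in library 1 and 25 in library 2, the Ms4a4a fold of 0.486 (interval 0.223 to 1) and log2 ratio of -0.93 did not pass (adjusted p = 0.0858, exact binomial test). The folds of Ms4a6d and Ms4a4a were nearly the same, and only the one with more counts was beyond counting error.

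Macrophage markers were lower in library 1 as well. Of 11 macrophage genes, all detected, 10 were lower beyond counting error and none higher, with a median log2 ratio of -0.59, and the list summed to 1293.4 TPM in library 1 against 1500.1 TPM in library 2. Hmox1, which breaks down haem, had a log2 ratio of -0.97, the iron exporter gene Slc40a1 one of -0.86 and Spic, the transcription factor of red pulp macrophages, one of -0.83. The complement gene C1qb, at -0.04, was the gene that did not pass (adjusted p = 0.0885, exact binomial test). All 11 were above the log2 ratio of -1.97 of Ms4a7. Ms4a7 had 5.66% of the macrophage list's median TPM in library 1 and 12.1% in library 2, and 8.32% and 21.1% of the TPM of Adgre1, which encodes the macrophage antigen F4/80. The part of macrophage content in the values of Ms4a7, Ms4a6d and Ms4a4a was not tested.

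**Figure D3:**
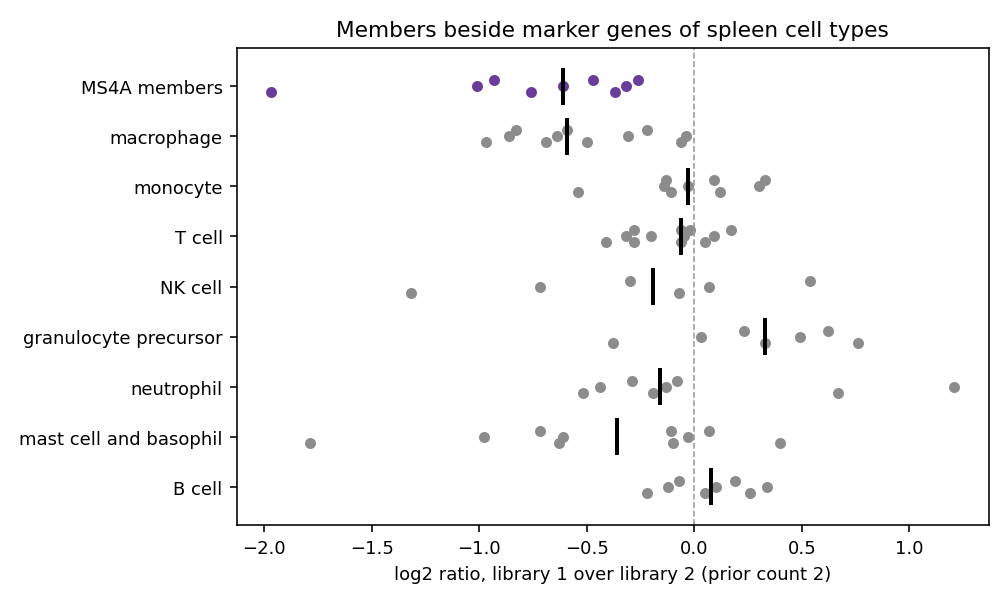
Log2 ratio of library 1 over library 2 for each tested gene, one point a gene, in the 9 members (purple) and 8 marker lists (grey), with black bars at the medians; vertical offsets only separate points. All 9 members lay below 0. Their median of -0.61 was the ratio of Ms4a3, which did not pass, and Ms4a4b and Ms4a6b were at -0.32 and -0.37. The macrophage list had a median of -0.59 and the granulocyte precursor list one of 0.33.

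Ms4a3 and Ms4a2 represented precursors and IgE-bearing cells. Ms4a3 (ENSMUSG00000024681, chr19:11629496-11640851, minus strand) marks granulocyte and monocyte precursors in the mouse. It was at 1.08 TPM in library 1 against 1.5 TPM in library 2, a mean of 1.29 ± 0.297 TPM, on 40 counts in library 1 and 63 in library 2. The fold of 0.643 (interval 0.422 to 0.971) and the log2 ratio of -0.61 did not pass after adjustment (adjusted p = 0.0579, exact binomial test).

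Granulocyte precursor markers were compared with Ms4a3. Of 7 granulocyte precursor genes, all detected, 4 were higher beyond counting error and none lower, with a median log2 ratio of 0.33, and the list summed to 150.0 TPM in library 1 against 94 TPM in library 2. Elane, a granule protease, had a log2 ratio of 0.76, and Mpo, the granule peroxidase, one of 0.33. Ctsg, a granule protease at 1.5 TPM in library 1 against 1.79 TPM in library 2, near the level of Ms4a3, had a log2 ratio of -0.38 and did not pass (adjusted p = 0.19, exact binomial test). Ms4a3 was at 4.17% of the TPM of Mpo in library 1 and 7.56% in library 2. The difference between Ms4a3 and these genes was not itself tested. Neutrophil genes had 4 lower and 2 higher of 8, with a median log2 ratio of -0.16.

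Ms4a2 (ENSMUSG00000024680, chr19:11615523-11623719, minus strand) encodes the receptor's signal-amplifying beta chain. It was at 0.1 TPM in library 1 against 0.12 TPM in library 2, a mean of 0.11 ± 0.0141 TPM, on 5 counts in library 1 and 10 in library 2, the fewest of the 9 members. The fold of 0.507 had an interval of 0.136 to 1.63, so a difference in either direction lay within counting error (adjusted p = 0.409, exact binomial test). Of the 10 counts in library 2, 7.62 were assigned to Ms4a2-204, which shares a 112-base run with Ms4a4b-201. Whether any of them came from Ms4a4b was not tested. In TPM the fold of Ms4a2 was 0.833. The average transcript length assigned to the gene was 1211 bases in library 1 and 1760.21 bases in library 2, and TPM also carries the shift of 1.11 between the libraries given above.

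The partners of Ms4a2 were unequal in level. Fcer1a, the IgE-binding chain, had 2 counts in library 1 and 6 in library 2, or 0.05 TPM in library 1 against 0.14 TPM in library 2. Its TPM was below that of Ms4a2 in library 1 and above it in library 2. Its counts were below the 5 and 10 of Ms4a2 in both libraries, so on so few counts the order of these genes was not separated. Fcer1g, the signalling chain that many other receptors also use, was at 213.86 TPM in library 1 against 276.31 TPM in library 2. Ms4a2 had 0.0468% of the TPM of Fcer1g in library 1 and 0.0434% in library 2, or 0.146% and 0.113% with the posterior mean TPM. Of 11 mast cell and basophil genes, 4 were detected in both libraries, and the list's median was 0.32 TPM in library 1 against 0.6 TPM in library 2. The median in library 2 was the level of Il4, which had 2 counts in library 1 and 12 in library 2. The list summed to 16.9 TPM in library 1 against 16.1 TPM in library 2. The list's 10 tested genes had 2 lower and 1 higher in library 1, and no gene of this or any other marker list was at 0 in both libraries. Of 6 tested genes of the receptor complex and its proximal signalling, 4 were lower and 1 higher in library 1, with a median log2 ratio of -0.14. The higher gene was Lat, an adaptor of T cell and mast cell receptors, with a log2 ratio of 0.25. The kinase gene Lyn, at -0.02, did not pass (adjusted p = 0.233, exact binomial test).

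The other 10 Ms4a genes differed among themselves. Ms4a1, the CD20 gene of B cells, was at 26 TPM in library 1 against 34.57 TPM in library 2, close to Ms4a6b, with a log2 ratio of -0.54 (adjusted p = 1.27e-62, exact binomial test). Of 8 other B cell genes, 3 were lower and 5 higher, with a median log2 ratio of 0.08. Ms4a4d was at 9.2 TPM in library 1 against 7.75 TPM in library 2, and Ms4a8a at 2.34 TPM in library 1 against 1.92 TPM in library 2. Neither Ms4a4d, at a log2 ratio of 0.12, nor Ms4a8a, at 0.15, passed the test. Ms4a14, which lies next to Ms4a7, was at 0.14 TPM in library 1 against 0.43 TPM in library 2, with a log2 ratio of -1.65 (adjusted p = 3.97e-08, exact binomial test). The genes with the lowest ratios of the family, Ms4a7 and Ms4a14, were neighbours on the same strand. Ms4a15 had 4 counts in each library and Ms4a18 had 1 in library 1 and 0 in library 2. Ms4a5, Ms4a10, Ms4a12 and Ms4a13 had 0 counts in both libraries, which allows up to 3 counts in each.

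**Figure D4:**
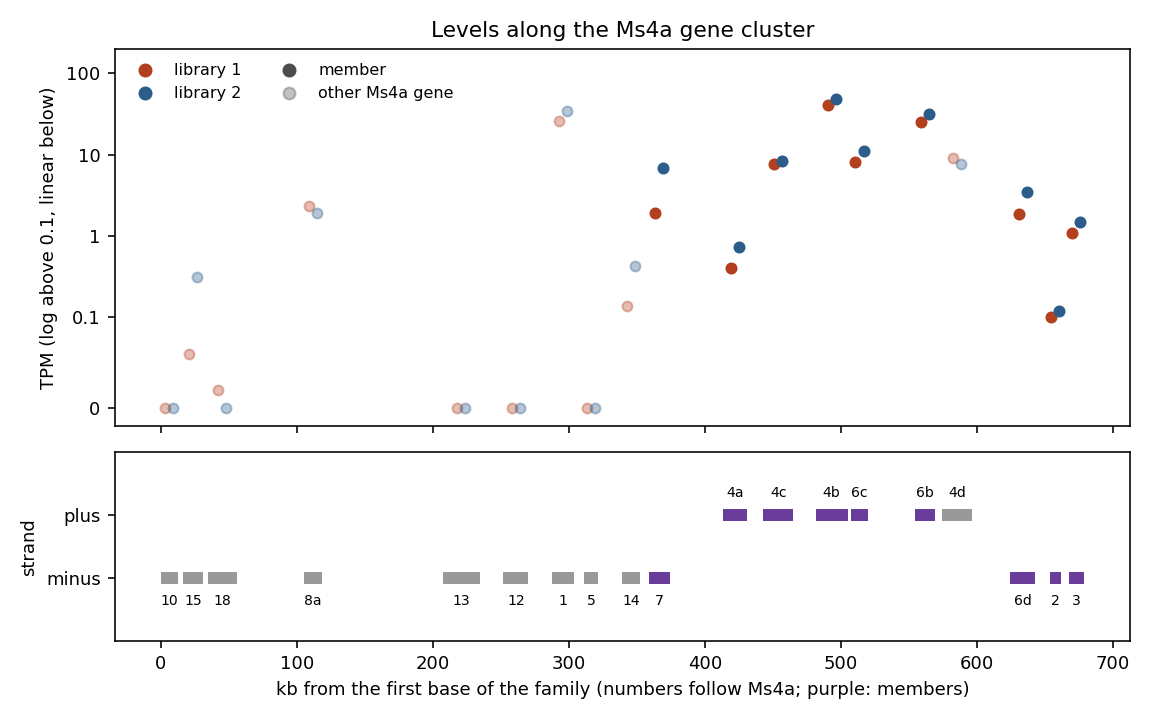
TPM of the 19 Ms4a genes in library 1 (red) and library 2 (blue) against distance in kb from the first base of the family, on an axis that is logarithmic above 0.1 TPM and linear below; the lower panel gives strand and span, members in purple. The highest levels stood at Ms4a4b, at 40.52 and 48.72 TPM, within a run of plus-strand genes, and 4 genes nearer the start of the family were at 0 in both libraries.

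The 19 genes with an Ms4a symbol spanned 678.6 kb. Between the outermost members lay 10 further annotated genes, of which 3 were detected in both libraries. Gm8369, a protein-coding gene between Ms4a6c and Ms4a6b, was at 32.34 TPM in library 1 against 34.32 TPM in library 2, above Ms4a6b in both. The other detected genes were BE692007 and Ms4a4d, described above. The low members Ms4a2 and Ms4a3 lay together at the far end, on the minus strand with Ms4a6d.

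The deposited transcript tables list 35 transcripts for the 9 members, 20 annotated as protein-coding and 11 as transcripts that keep an intron. For 8 of the 9 members the same transcript held the largest share of the gene's TPM in both libraries, Ms4a4a having only 1. Ms4a4b-201 held 81.48% of Ms4a4b in library 1 and 73.42% in library 2, and Ms4a4b-207, which keeps an intron, 7.9% and 12.57%. All 5 intron-keeping transcripts of Ms4a4b together held 18.5% in library 1 and 26.6% in library 2. Ms4a6c-201 held 92.12% of Ms4a6c in library 1 and 81.41% in library 2, the rest being the intron-keeping Ms4a6c-202. Of the 6 members with such transcripts, Ms4a4b and Ms4a6c had a lower share of them in library 1 and the other 4 a higher one, and these differences were not tested.

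Ms4a6b was divided among 3 main transcripts. Ms4a6b-201 held 67.35% of its TPM in library 1 and 71.72% in library 2. Ms4a6b-203, which keeps an intron, held 14.76% and 13.21% in the same order, and the protein-coding Ms4a6b-205 12.3% and 8.52%. The last was thus a larger part of the gene in library 1, unlike Ms4a6b-201. Ms4a4c-201 held 88.22% of Ms4a4c in library 1 and 86.19% in library 2. Ms4a7-203 held 57.9% of Ms4a7 in library 1 and 60.05% in library 2, and Ms4a7-202 held 33.62% and 35.66%. By TPM these main shares of Ms4a7 were thus close in the libraries although the gene's level was not. By posterior mean TPM, Ms4a7-203 held 52.67% in library 1 and 58.82% in library 2, Ms4a7-202 33.71% and 35.36%, and Ms4a7-204 7.59% and 1.06%. In library 1 the deposited bounds of Ms4a7-203, 0.695 to 1.47 TPM, overlapped those of Ms4a7-202, 0.23 to 1.22 TPM. Whether the makeup differed was not tested.

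In Ms4a6d the largest TPM share was that of a transcript that keeps an intron. Ms4a6d-203, of 460 bases, held 62.52% of the gene's TPM in library 1 and 58.53% in library 2, while the protein-coding Ms4a6d-201, of 1418 bases, held 37.48% and 37.14%. By counts, which are not corrected for length, Ms4a6d-203 held 25.5% in library 1 and 24.5% in library 2. It rested on 14.02 estimated counts in library 1 and 27.91 in library 2. Its deposited bounds, 0.202 to 1.95 TPM in library 1 and 0.892 to 3.05 TPM in library 2, overlapped those of Ms4a6d-201, 0.456 to 0.936 TPM and 0.968 to 1.6 TPM, so the order of these transcripts was not separated. The protein-coding Ms4a6d-201 alone was at 0.71 TPM in library 1 against 1.28 TPM in library 2.

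In Ms4a3 and Ms4a2, both low, the shares were far apart between the libraries. Ms4a3-202 held 97.45% of Ms4a3 in library 1 and 52.31% in library 2, and Ms4a3-201 held 0% and 46.12%. The deposited spread of the Ms4a3-202 count was 6.05 in library 1 and 11.43 in library 2, beside estimates of 38.28 and 31.77 counts. For Ms4a2 the leading transcript differed, with Ms4a2-201 at 100% in library 1 and Ms4a2-204 at 54.32% in library 2, on the 5 and 10 counts of the gene. By posterior mean TPM, Ms4a2-201 held 37.9% in library 1. In library 2 the largest share was then that of Ms4a2-203, at 29.67% on 0 counts, with Ms4a2-204 at 22.33%. These differences in share were not tested.

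**Figure D5:**
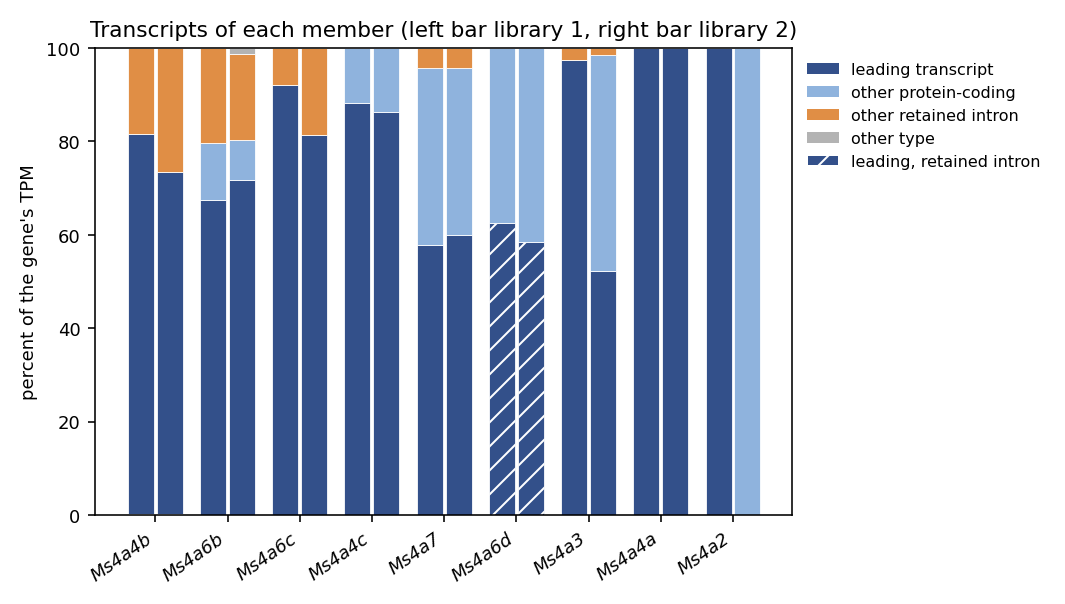
Share of each member's TPM held by its transcripts in library 1 (left bar) and library 2 (right bar), coloured by class, where the leading transcript is the one of highest mean TPM over both libraries and hatching marks one that keeps an intron. In Ms4a6d such a transcript had the largest share, at 62.52% and 58.53%, and Ms4a3 and Ms4a2 show the widest changes between the bars, on few counts.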

How the data were processed

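Both libraries are poly(A) RNA depleted of ribosomal RNA, longer than 200 nucleotides and read from both ends with 76-nucleotide reads, per the labels. The deposited tables give expected counts, estimated reads per gene or transcript that need not be whole, and TPM, scaled by the authors over all entries of a table. The deposited transcript tables add each transcript's percent of the TPM of its gene. They use mm10 with GENCODE M4, per the deposited notes. No source used here gives the aligner, the quantifier or the strand setting. Symbols, positions and transcript sequences came from GENCODE M21 of the same assembly, by unversioned identifier, for 42462 of 43346 genes (98%). Of the members' 35 transcripts, 33 have the same length in M21. Ms4a4b-201 has 1244 bases in the deposited files and 4750 in M21. Shared stretches of Ms4a4b outside its coding part may thus not have been in the authors' annotation. The TPM of Ms4a4b, and so its place above Ms4a6b, rests on the shorter length. Contig and junction lists on mm9 were not used.

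Expected counts were rounded and library sizes scaled by TMM (edgeR 4.0.16, R 4.3.3). Each gene with at least 10 counts in total had an exact two-sided binomial test of its counts in library 1 and library 2 with Benjamini-Hochberg adjustment over all genes tested, and 0.05 as threshold. Log2 ratios are library 1 over library 2 with a prior count of 2, and folds use none. The test, checked on simulated data, compares 2 libraries; edgeR's quasi-likelihood test had no residual degrees of freedom. Intervals (exact, 95%) cover only binomial counting error between the 2 libraries. The reads carry no molecular identifiers, so repeated reads of a molecule count separately and the intervals may be too narrow. DESeq2 1.42.0 gave alternative size factors. Python 3.11.15, pandas 2.3.3, numpy 2.4.6, scipy 1.17.1 and matplotlib 3.10.9 did the rest. All 9 members were named, with other Ms4a genes, genes between the members at 1 TPM or more in both libraries or overlapping a member, marker genes, and each member's leading transcript with others at 10% or more in both libraries. Ms4a3-201, Ms4a4b-207, Ms4a6b-205 and the pseudogene and antisense neighbours were named after their values were seen. The members and lists were chosen with earlier results of these data known.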

Additional observations from a re-analysis of the deposited data

How the results depend on the processing

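Levels were recomputed from posterior mean TPM, from the sum of transcripts and without each library, and 7 members were at 1 TPM or more each time. Differences were recomputed with DESeq2 size factors, with totals alone, with minimums of 1 and 50 counts, with posterior mean counts and with a prior count of 0.5, and the same number, 6 members, were beyond counting error and lower in library 1 each time. No member passed or lost the threshold in any of these, and none changed sign. Ms4a3 came nearest, at adjusted p between 0.0519 and 0.0721 by the exact binomial test. With totals alone the share of all calls that were lower in library 1 was 41.9%, beside 47.6% with TMM. In that setting Ms4a6d had a log2 ratio of -0.98 in place of -1.01, no longer more than 2-fold lower. Without a minimum, 8752 of 21368 genes were called, and with 50 counts 8558 of 14887. Ms4a2 and Ms4a4a had too few counts for the minimum of 50. From posterior mean TPM, Ms4a2 was at 0.31 TPM in both libraries, so not lower in library 1, in place of a mean of 0.11. Ms4a4c averaged 8.56 in place of 8.03. By the same estimate the shares of Ms4a4c-201, Ms4a6d-203 and Ms4a7-203 averaged 80.7%, 53.9% and 55.7% in place of 87.2%, 60.5% and 59%. The shares of Ms4a2-201 and Ms4a3-202, which were far apart between the libraries, averaged 23.8% and 64.6% in place of 50% and 74.9%. The leading transcripts of 8 members matched between libraries in both estimates. Leaving out a library gives no value for a difference between libraries, and no paired analysis was possible because there is 1 group. The depth limits Ms4a2 and Ms4a4a most, with 5 and 12 counts in library 1.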

Other observations

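Tmem176a and Tmem176b, distant relatives of the MS4A genes that dendritic cells and macrophages express, stood above every member in both libraries. Tmem176a was at 109.31 TPM in library 1 against 93.93 TPM in library 2, and Tmem176b at 162.5 TPM in library 1 against 160.45 TPM in library 2. Their log2 ratios were 0.08 for Tmem176a and -0.11 for Tmem176b, both beyond counting error (adjusted p = 0.022 and 1.34e-06, exact binomial test), and both were above the ratios of all 9 members.

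Gm8369, which lies between Ms4a6c and Ms4a6b on their strand, shared no stretch of 76 bases with any of the 11 other genes compared. Its longest identical runs were shorter, 55 bases with Ms4a4b and 40 with Ms4a4c. Its level of 32.34 TPM in library 1 against 34.32 TPM in library 2 was near that of Ms4a6b.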
